A study of Mus musculus with 6 samples.

Results

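The STAT genes of the mouse described here are Stat2, Stat3, Stat4, Stat5a, Stat5b and Stat6, which encode signal transducers and activators of transcription. Members were taken by name, with no measured value used: every ATAC-seq peak that the authors' annotation assigned to 1 of these 6 symbols was kept, which gave 116 of 282898 peaks and 6 of the 19109 genes with a peak. ATAC-seq marks open chromatin by the places where a transposase can insert sequencing adaptors. Libraries were made from untreated T follicular helper cells of strain C57BL/6 mice that either lack Stat6 (KO) or carry it intact (WT), sorted into the 3 populations Tfh21, Tfh214 and Tfh4. The groups are thus KO Tfh21, KO Tfh214 and KO Tfh4, then WT Tfh21, WT Tfh214 and WT Tfh4, each with 1 library of 50000 cells. Each genotype was sorted from 10 mice, so a library stands for a pool of animals and not for 1 animal. What part of Stat6 the allele removes, in which cells it is removed, and the age, sex and organ of the mice are not stated in the labels. The question put to the data was whether the other STAT loci differ in accessibility when Stat6 is lost.

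STAT proteins wait in the cytoplasm until a cytokine receptor and its Janus kinases (JAKs) phosphorylate them, and then pair, enter the nucleus and bind DNA. Stat6 answers to IL-4 and IL-13 and drives type 2 helper programs, Stat4 answers to IL-12 and drives type 1 programs, and Stat3 answers to IL-6, IL-10 and IL-21. Stat5a and Stat5b are near copies of each other that answer to IL-2 and IL-7 and restrain the follicular helper program, whereas Stat3 favours it. Stat2 reaches DNA mainly through its partner Irf9, downstream of type I interferon.

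The promoters of these genes differ in base composition, and those that the results turn on are printed here as the 250 bases before the annotated start, 5′ to 3′. They come from RefSeq in build GRCm38.p6, in which 9 promoters of the 6 genes matched by symbol. The peaks are in build mm9, and no position was carried from one build to the other. In the first pair, shown because they hold the only matches to the STAT or interferon motifs searched, capitals mark those matches. The Stat2 promoter is at chr10:128270248-128270497, plus strand, and the second Stat4 promoter at chr1:52007990-52008239, plus strand.
Stat2: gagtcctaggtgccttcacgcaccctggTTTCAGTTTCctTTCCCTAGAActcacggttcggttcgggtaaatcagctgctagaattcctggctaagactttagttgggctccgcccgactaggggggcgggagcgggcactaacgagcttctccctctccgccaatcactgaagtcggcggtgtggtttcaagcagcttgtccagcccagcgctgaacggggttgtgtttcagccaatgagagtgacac
Stat4 second promoter: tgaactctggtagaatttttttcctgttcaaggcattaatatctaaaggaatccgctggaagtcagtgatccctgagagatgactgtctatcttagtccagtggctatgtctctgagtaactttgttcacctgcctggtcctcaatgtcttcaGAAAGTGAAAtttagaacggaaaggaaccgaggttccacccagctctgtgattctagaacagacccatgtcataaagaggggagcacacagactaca
In the next 4, shown because Stat4 had no peak at its start, Stat6 was targeted, and the first Stat5b promoter holds the most CG of the 9, capitals mark each CG. The first Stat4 promoter is at chr1:51986898-51987147, plus strand, and the Stat6 promoter at chr10:127642736-127642985, plus strand. The first Stat5b promoter is at chr11:100850582-100850831, minus strand, and the second at chr11:100822571-100822820, minus strand.
Stat4 first promoter: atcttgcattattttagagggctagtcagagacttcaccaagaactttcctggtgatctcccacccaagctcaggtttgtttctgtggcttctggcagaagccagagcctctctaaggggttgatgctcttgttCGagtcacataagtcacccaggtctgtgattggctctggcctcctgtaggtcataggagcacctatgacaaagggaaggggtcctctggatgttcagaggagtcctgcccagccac
Stat6: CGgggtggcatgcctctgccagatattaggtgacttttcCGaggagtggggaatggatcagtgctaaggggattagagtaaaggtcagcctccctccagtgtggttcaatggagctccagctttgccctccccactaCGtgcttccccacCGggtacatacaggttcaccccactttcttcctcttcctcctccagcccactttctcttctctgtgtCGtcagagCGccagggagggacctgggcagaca
Stat5b first promoter: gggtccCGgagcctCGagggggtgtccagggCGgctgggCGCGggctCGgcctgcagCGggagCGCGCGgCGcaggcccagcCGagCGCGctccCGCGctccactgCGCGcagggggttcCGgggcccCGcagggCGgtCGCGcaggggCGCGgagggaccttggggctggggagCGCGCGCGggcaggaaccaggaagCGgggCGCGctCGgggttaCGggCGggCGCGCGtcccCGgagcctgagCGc
Stat5b second promoter: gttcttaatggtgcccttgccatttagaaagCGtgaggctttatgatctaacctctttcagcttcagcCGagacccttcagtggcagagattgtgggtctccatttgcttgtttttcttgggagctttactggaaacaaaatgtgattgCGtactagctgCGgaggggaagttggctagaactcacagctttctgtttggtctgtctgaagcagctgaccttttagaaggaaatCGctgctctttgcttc

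The first Stat5b promoter held 40 CG and the second 5, against a median of 6 over all 32851 promoters of this length (quartiles 2 and 16). Stat6 held 6 CG, and the promoters of Stat4 held 1 and 3. Stat2 held 14, Stat3 held 13, and the 2 promoters of Stat5a held 5 and 21. Motifs were searched on both strands. TTC followed after 4 free bases by GAA, the spacing that Stat6 prefers, matched in Stat2 alone of the 9, with its first base 210 bases before the start, as TTCCCTAGAA, and 5.85% of all promoters held a match. The same pair with 3 free bases, the spacing of other STAT dimers, matched in none of the 9, against 7.02% of all promoters. GAAA followed after 2 free bases by GAAA, the core bound by interferon-activated Stat2 complexes and by interferon regulatory factors, matched in Stat2 at 222 bases (as TTTCAGTTTC on the printed strand) and in the second Stat4 promoter at 97 bases (as GAAAGTGAAA), against 2.98% of all promoters. The 2 matches in Stat2 do not overlap. GGGCGG matched in Stat2, Stat3, the second Stat5a and the first Stat5b promoter (32.7% of all promoters), and CCAAT in Stat2, Stat3 and the first Stat4 promoter (33.8%).

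Depth was low, with 798555 reads in peaks in KO Tfh214 and up to 1373218 in WT Tfh4, and values are given as CPM, reads scaled to the same total of reads in peaks in every library. The median peak of the 6 genes held 17 reads over all 6 libraries (14 for all peaks), 88 of the 116 held under 30, and 43 had 0 reads in at least 1 library. A ratio between libraries carries an exact binomial 95% interval, which takes in the error of counting alone, because copies made by PCR do not count separate molecules. With 1 library a group, such a ratio compares those libraries and not the genotypes. A higher value in these bulk libraries can mean more cells with an open site or more cuts per cell, which cannot be told apart. Peaks at start sites took 29.7% to 36.4% of all reads in KO libraries and 27.6% to 31.5% in WT libraries. Marker lists of unequal size were summed beside the label as T follicular helper cells, so sums cannot be compared between lists. All 9 Tfh genes and all 5 T cell genes had peaks: over the Tfh genes accessibility was 464 to 641 CPM in KO and 451 to 559 CPM in WT, and over 5 T cell genes 135 to 208 CPM in KO and 150 to 174 CPM in WT. B cell markers summed to 91.3 to 106 CPM in KO and 102 to 145 CPM in WT, with no peak at Cd79a and Ms4a1. The strongest B cell gene averaged 77.9 CPM and the strongest T cell gene 66.4 CPM, so these sums alone do not settle the label. Myeloid markers summed to 41.9 to 55.7 CPM in KO and 51.7 to 56.6 CPM in WT, CD8 T cell markers to 3.81 to 12.1 CPM in KO and 7.86 to 13.1 CPM in WT with no peak at Cd8a, and NK cell markers to 7.51 to 12.4 CPM in KO and 8.02 to 11.0 CPM in WT with no peak at Ncr1.

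The 6 genes were built differently in their open chromatin. Stat2 and Stat6 on chromosome 10, with starts 0.628 Mb apart, had 5 and 6 peaks, most of whose reads lay at the start. Stat2 had 79.6% of its reads in its start-site peak (chr10:127707296-127707893), and Stat6 had 74.3% in its 3 start-site peaks, of which the strongest lay at -383 bases from the annotated start (chr10:127078949-127079659). On chromosome 11, Stat5a and Stat5b run away from each other with starts 9.898 kb apart, and the end of Stat5a lies 1.636 kb from the end of Stat3. Stat5a had 8 peaks and 70.2% of its reads at the start, Stat3 had 19 peaks and 51.0%, and Stat5b had 33 peaks and 19.1%. The Stat5b share takes in a peak at the start of a second transcript. Over all genes with peaks the share at start sites was 48.0%.

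Stat4 on chromosome 1 differed most from that share. It had 45 peaks and none of them was listed at its start site: the nearest lay 4675 bases into the gene, 26 lay in introns with 619 of the 995 reads, and the strongest (chr1:52096190-52096662, intron 4) held 63 reads. A cluster of 8 peaks with 185 reads lay 21228 to 24304 bases from the annotated start, and the second RefSeq promoter of Stat4 lies 21092 bases from the first in GRCm38.p6. In Stat5b, 529 of 758 reads lay between the first start and the coding part of the gene, in 23 peaks. A second Stat5b transcript in the authors' annotation starts 28015 bases into the gene. A start-site peak was listed on that second start (chr11:100683771-100683960), with 25 reads. The strongest peak away from the first start lay 26156 bases in (chr11:100685384-100685744, 66 reads).

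**Figure D1:**
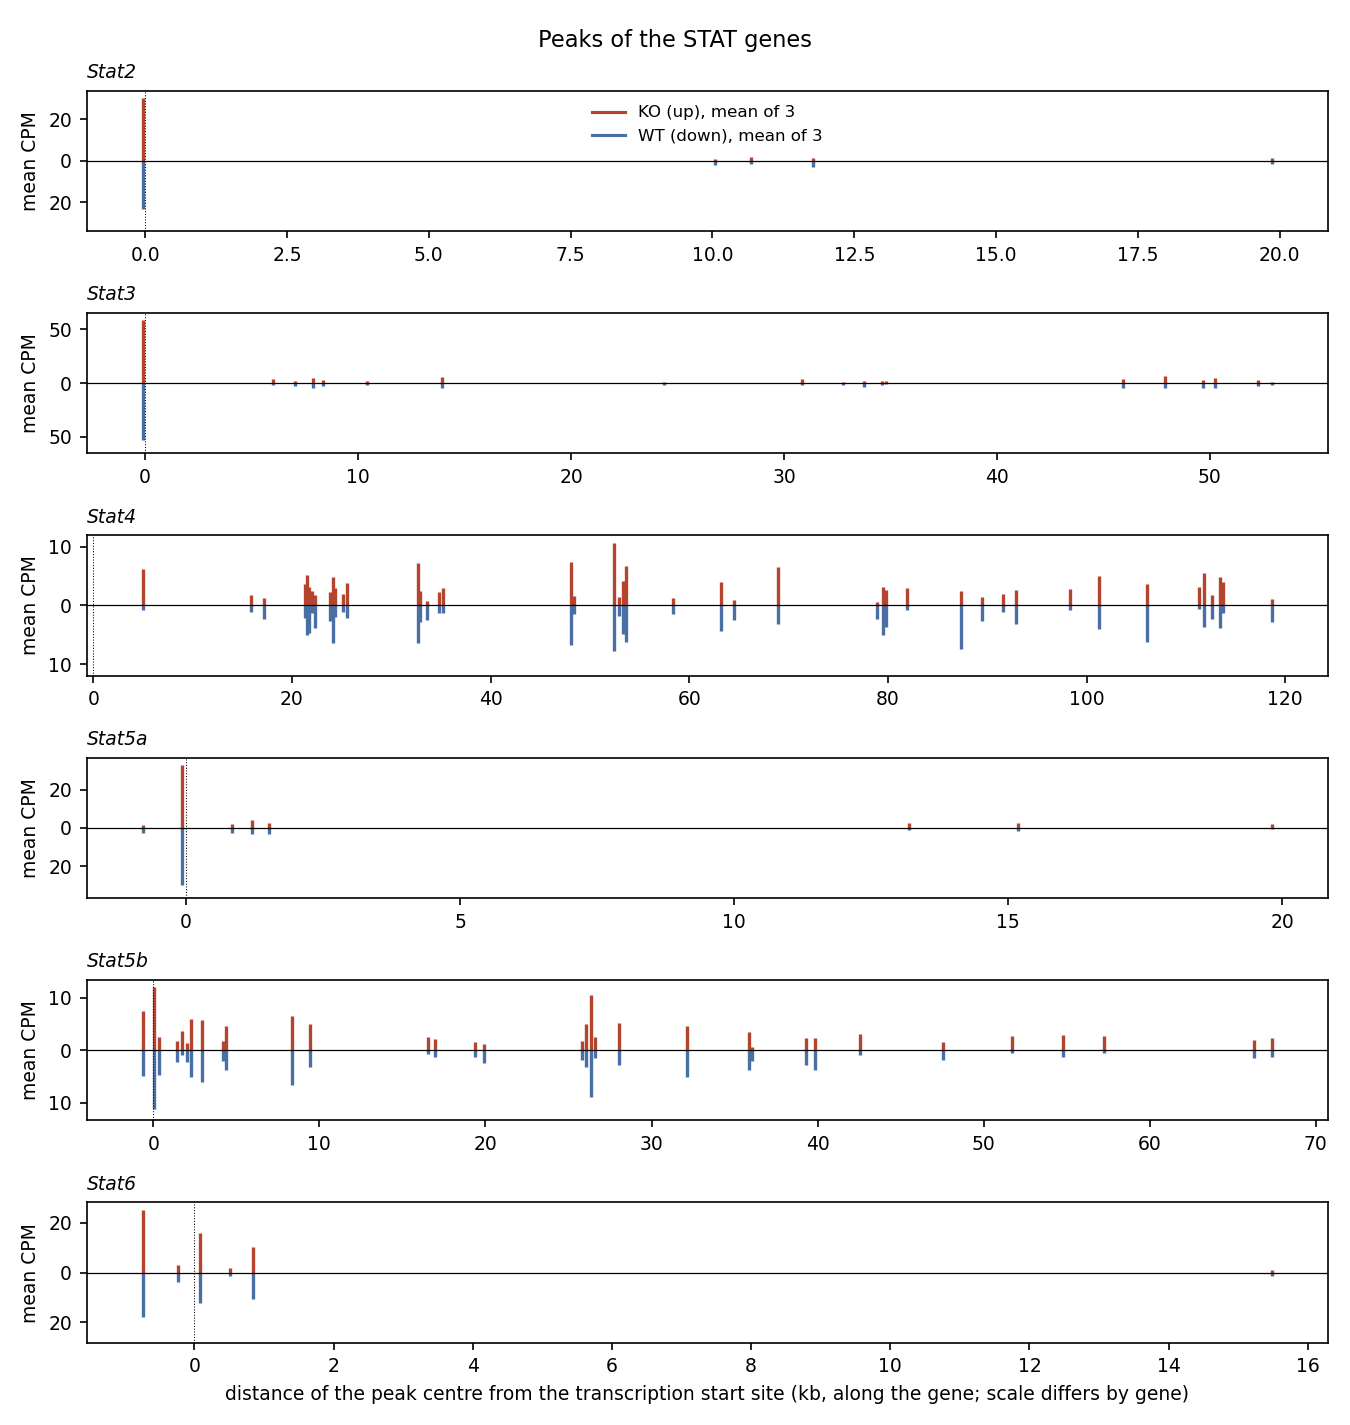
Mean CPM of each of the 116 peaks, for KO upward and WT downward (mean of the 3 populations), against the distance in kb of the peak centre from the annotated start; the scale of both axes differs by gene. Stat2, Stat3, Stat5a and Stat6 have their strongest peaks at the start, and Stat4 has 45 peaks spread along the gene with none at the start.

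Per kb of peak, so that genes can be compared, the mean level over the 6 libraries was highest for Stat6 at 24.0 CPM per kb (range 19.3 to 29.2). Stat5a had 15.8 (12.1 to 20.2), Stat2 14.2 (11.8 to 17.1), Stat3 13.6 (10.9 to 16.0), Stat5b 11.3 (9.13 to 13.4) and Stat4 8.84 (7.15 to 11.0). The range of Stat6 overlapped that of Stat5a alone, and each other gene overlapped its neighbours in the order. At the start-site peaks alone, Stat3 led with 48.9 CPM per kb, then Stat2 with 44.8, Stat6 with 40.5 at the peak on its start, Stat5a with 37.5 and Stat5b with 33.1.

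All 6 STAT loci were accessible in KO libraries, and none differed by genotype at the threshold of the test, an adjusted p of 0.05. Stat6 itself, summed over its peaks, had 54.2, 63.9 and 54.9 CPM in KO Tfh21, Tfh214 and Tfh4, against 45.4, 54.3 and 42.2 CPM in WT. Each KO library was above the WT library of its population, and the groups overlapped only through KO Tfh21 and WT Tfh214. The genotype effect was 0.28 ± 0.14 (SE) on the log2(CPM + 1) scale, adjusted p = 0.474 by limma over 10825 genes. Genotype and population were terms, with 2 residual degrees of freedom per gene before limma shared the variance over genes. Since the deleted part is not known here, these peaks check no genotype label.

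Of the STATs that share cytokines with the follicular program, Stat3 had 126, 128 and 88.8 CPM in KO Tfh21, Tfh214 and Tfh4, against 114, 87.3 and 108 CPM in WT. It was higher in KO in Tfh21 and Tfh214 and lower in KO in Tfh4, with an effect of 0.14 ± 0.13 (limma, adjusted p = 0.703). Stat4 had 181, 148 and 124 CPM in KO, against 139, 118 and 165 CPM in WT, again higher in KO in Tfh21 and Tfh214 and lower in Tfh4. Its effect was 0.10 ± 0.12 (limma, adjusted p = 0.792).

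Stat5a had 60.9, 52.6 and 36.3 CPM in KO, against 37.4, 47.2 and 50.2 CPM in WT, with KO Tfh21 the highest of its 6 libraries and KO Tfh4 and WT Tfh21 the lowest. Stat5b had 132, 125 and 106 CPM in KO, against 104, 90.4 and 114 CPM in WT, so that every KO library was above WT Tfh21 and WT Tfh214. The effects were 0.13 ± 0.18 for Stat5a (limma, adjusted p = 0.81) and 0.23 ± 0.12 for Stat5b (limma, adjusted p = 0.476). Stat2, the interferon STAT, had 40.0, 32.6 and 33.9 CPM in KO, against 37.4, 27.5 and 27.7 CPM in WT, higher in KO in every population with overlapping groups. Its effect was 0.20 ± 0.18 (limma, adjusted p = 0.685).

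**Figure D2:**
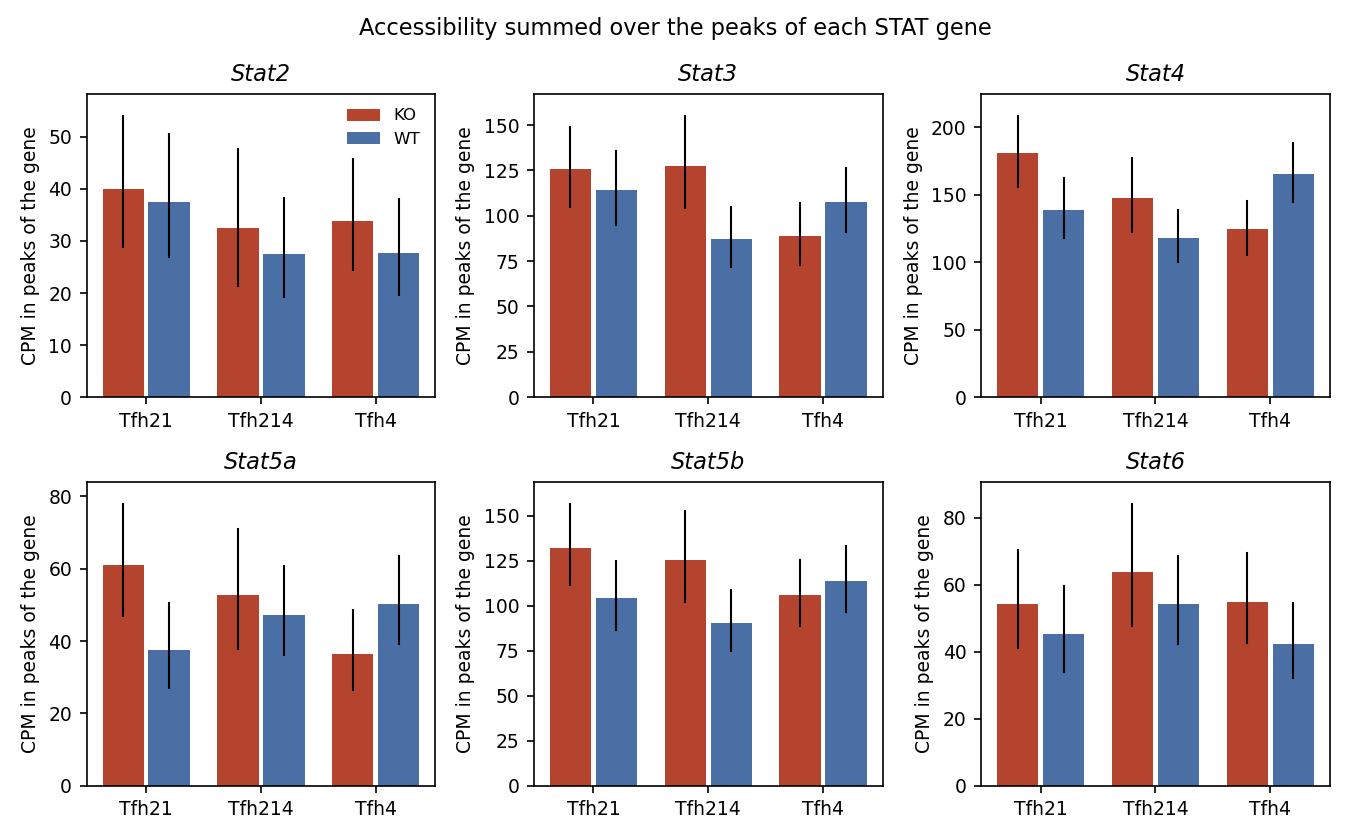
Accessibility of each STAT gene as CPM summed over its peaks, KO left of WT in each population; bars are single libraries and lines are exact Poisson 95% intervals on the reads. Stat2 and Stat6 have the KO bar above the WT bar in all 3 populations, whereas for Stat3, Stat4, Stat5a and Stat5b the KO bar is the lower one in Tfh4.

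The test called 0 of the 6 genes, and over all 10825 genes tested it called 1 higher in KO (0.00924%) and 5 lower (0.0462%), with 1202 at an unadjusted p under 0.05. With median-of-ratios scaling, a depth correction by the median over well-covered peaks and not over genes, it called 3 higher and 252 lower. On deposited CPM it called 2 genes without the Tfh21 libraries, 1 without Tfh214 and 68 without Tfh4, and edgeR and DESeq2 on recovered reads called 0 of the 6 STAT genes too. The median effect of the 6 was 0.17 and that of all genes 0.07, and all 6 effects were above 0, as were 6891 of the 10825. Well-covered peaks had a median effect of 0.19 on deposited CPM, above the 0.07 of all genes. Under median-of-ratios scaling the median of all genes moved to -0.11, so this scaling does not centre genes on 0. Stat3, Stat4 and Stat5a turned to -0.052, -0.091 and -0.058 under it. These signs, and the 252 genes called lower, are thus relative to well-covered peaks and not to the median gene. Leaving out the Tfh214 libraries turned Stat3 to -0.069 and Stat4 to -0.015, and leaving out the Tfh21 libraries turned Stat4 to -0.043 and Stat5a to -0.15. The data thus give no firm direction for these 3 genes. Reads pooled over populations gave KO to WT ratios of 1.17 (0.890 to 1.53) for Stat2, 1.08 (0.935 to 1.26) for Stat3 and 1.06 (0.932 to 1.20) for Stat4. The ratios were 1.08 (0.860 to 1.35) for Stat5a, 1.16 (1.01 to 1.34) for Stat5b and 1.21 (0.974 to 1.49) for Stat6. Stat5b was the 1 gene whose interval excluded 1, where 8.3% of genes lay above 1 by this measure and 4.26% below, and with median-of-ratios scaling its ratio was 1.02 (0.886 to 1.18). Its interval also included 1 without the Tfh21 libraries, at 1.11, and without the Tfh214 libraries, at 1.08. No STAT gene had every KO library above every WT library, which 8.83% of genes had, or below, which 3.39% had. Differences smaller than these intervals were not detectable at this depth.

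Within single populations, Tfh4 gave other directions than Tfh21 and Tfh214 for 4 of the 6 genes on deposited CPM. In Tfh21, Stat5a stood at 1.63 (1.09 to 2.46), Stat4 at 1.30 (1.05 to 1.62), Stat5b at 1.27 (0.985 to 1.64), Stat6 at 1.19 (0.804 to 1.78), Stat3 at 1.10 (0.857 to 1.42) and Stat2 at 1.07 (0.680 to 1.68), as KO to WT ratios. In Tfh214, Stat3 stood at 1.46 (1.11 to 1.93), Stat5b at 1.38 (1.05 to 1.83), Stat4 at 1.25 (0.976 to 1.61), Stat2 at 1.18 (0.684 to 2.02), Stat6 at 1.18 (0.803 to 1.72) and Stat5a at 1.11 (0.733 to 1.68). All 6 genes were thus above 1 in both populations on deposited CPM, but with median-of-ratios scaling Stat2 (0.906) and Stat3 (0.934) in Tfh21 and Stat5a (0.995) in Tfh214 were below 1. In Tfh4, Stat6 and Stat2 stayed above 1, at 1.30 (0.902 to 1.88) and 1.23 (0.771 to 1.95), while Stat5b stood at 0.931 (0.732 to 1.18), Stat3 at 0.824 (0.638 to 1.06), Stat4 at 0.752 (0.609 to 0.927) and Stat5a at 0.723 (0.485 to 1.07). The median KO to WT difference over genes was 0.09 on the log2(CPM + 1) scale in Tfh21, 0.06 in Tfh214 and 0.01 in Tfh4.

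A 1.5-fold difference on the log2(CPM + 1) scale was reached once, by Stat5a in Tfh21, where 4.77% of genes were that much higher in KO and 5.02% lower. In Tfh214 none of the 6 reached it (4.57% of genes higher in KO, 6.34% lower), nor in Tfh4 (4.55% higher, 7.19% lower). With median-of-ratios scaling, Stat5a in Tfh21 stood at 1.38 (0.921 to 2.09), Stat4 at 1.10 (0.888 to 1.37), and in Tfh214 Stat3 at 1.31 (0.989 to 1.73) and Stat5b at 1.24 (0.936 to 1.63), so that no interval of a gene higher in KO still excluded 1. In Tfh4 the same scaling gave 0.734 (0.568 to 0.946) for Stat3, 0.670 (0.542 to 0.826) for Stat4 and 0.644 (0.432 to 0.951) for Stat5a. Which STAT genes stand apart within a population therefore depended on the scaling.

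**Figure D3:**
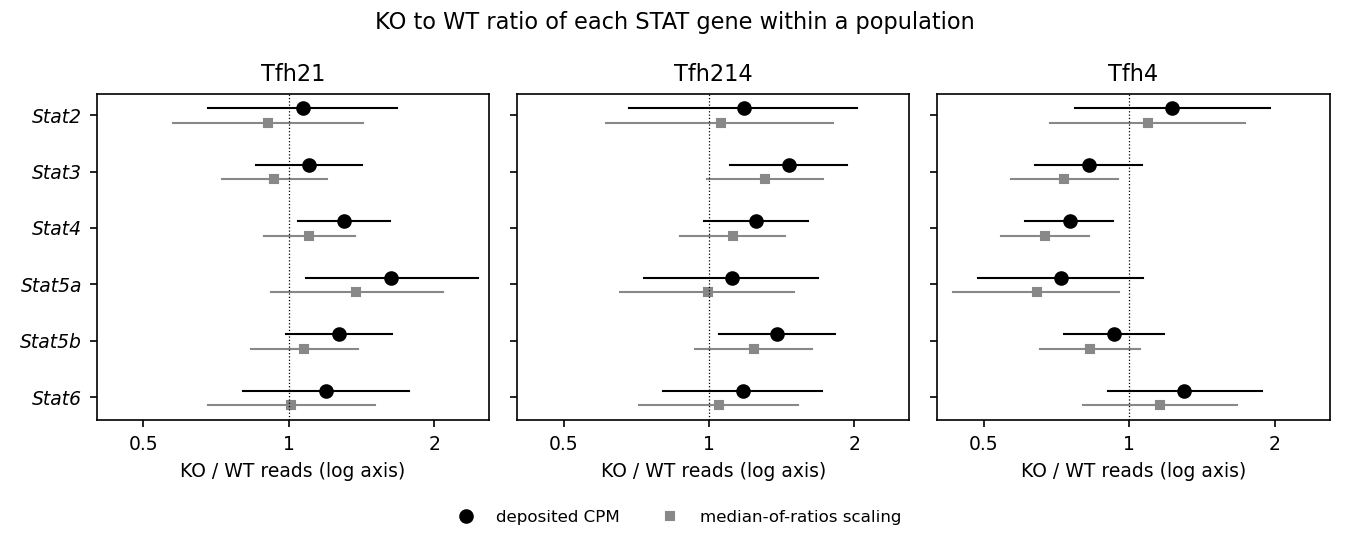
KO to WT ratio of reads of each STAT gene in each population on a log axis, with exact binomial 95% intervals (counting error only), for deposited CPM (black circles) and median-of-ratios scaling (grey squares). In Tfh4 the ratios of Stat3, Stat4 and Stat5a lie left of 1 under both scalings, while Stat2 and Stat6 lie right of 1.

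The difference between populations depended less on scaling. The KO to WT ratio of Stat4 in Tfh4 was 0.579 times that in Tfh21 (0.426 to 0.785) and 0.601 times that in Tfh214 (0.432 to 0.834). Stat5a in Tfh4 was 0.446 times that in Tfh21 (0.249 to 0.790), Stat3 in Tfh4 was 0.563 times that in Tfh214 (0.385 to 0.825), and Stat5b in Tfh4 was 0.672 times that in Tfh214 (0.464 to 0.974). These 5 of 18 comparisons excluded 1, and 5 did with median-of-ratios scaling. Over all genes, the ratio differed in this sense in 5.49% for Tfh4 over Tfh21, 6.86% for Tfh4 over Tfh214 and 3.55% for Tfh214 over Tfh21, where none of the 6 did. For Stat2 the 3 values lay between 1.03 and 1.15 and for Stat6 between 0.988 and 1.10, each interval including 1. The T cell markers had 208, 187 and 135 CPM in KO Tfh21, Tfh214 and Tfh4, against 150, 153 and 174 CPM in WT, so KO was lower in Tfh4. The Tfh markers did not turn in Tfh4, with 641, 619 and 464 CPM in KO, against 525, 559 and 451 CPM in WT. The part of either marker list in the result was not tested, and with 1 library a group a population effect cannot be told apart from the library.

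Peak by peak, 64 of the 116 STAT peaks (55.2%) had a KO to WT ratio above 1, against 47.5% of all peaks. Every KO library was above every WT library at 8 of the 116 (6.90%), against 4.12% of all peaks, and below at 2 (1.72%), against 6.41%. Of the 8, 4 lay in Stat4, 2 in Stat5b, 1 in Stat5a and 1 in Stat6. The pooled interval lay above 1 at 4 of the 116 (1.93% of all peaks) and below 1 at 1 (4.04%). All 5 lay in Stat4 and Stat5b, away from a start site.

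These peaks, and the Stat5b intron and exon peaks below, were picked from the 116 because their intervals excluded 1. Intervals of peaks picked in this way overstate how firmly each peak differs, and the reads are few. The highest ratio was at the Stat4 peak nearest to the start (chr1:52048667-52049357, 4675 bases in). It held 6, 7 and 5 reads in KO Tfh21, Tfh214 and Tfh4, against 1, 2 and 0 reads in WT, so that the groups did not overlap. The pooled ratio was 7.32 (2.14 to 38.8). Median-of-ratios scaling gave 6.45 (1.88 to 34.2). Coding exon 17 of Stat4 carried a peak (chr1:52155084-52155498) with 4, 2 and 4 reads in KO, against 1, 1 and 0 in WT, a ratio of 6.10 (1.30 to 57.3). Exon 8 of the same gene ran the other way: its peak (chr1:52130958-52131833) held 4, 1 and 3 reads in KO, against 7, 7 and 14 in WT, a ratio of 0.349 (0.137 to 0.785). Groups again did not overlap there. The sum over the Stat4 peaks holds both directions.

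In Stat5b, intron 2 (chr11:100669135-100669509) held 5, 1 and 4 reads in KO, against 2, 1 and 0 in WT, a ratio of 4.07 (1.05 to 23.0). Coding exon 6 (chr11:100660005-100660329) held 2, 1 and 6 reads in KO, against 1, 1 and 0 in WT, a ratio of 5.49 (1.14 to 52.2), with groups that did not overlap. Under median-of-ratios scaling the intron peak stood at 3.58 (0.922 to 20.2) and the exon peak at 4.83, with an interval that just touched 1. The cluster past the second Stat4 start summed to 24.7, 30.1 and 23.4 CPM in KO, against 26.7, 23.6 and 33.5 CPM in WT, a ratio of 0.909 (0.671 to 1.23). A difference by genotype was not detectable there with 79 KO and 106 WT reads.

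**Figure D4:**
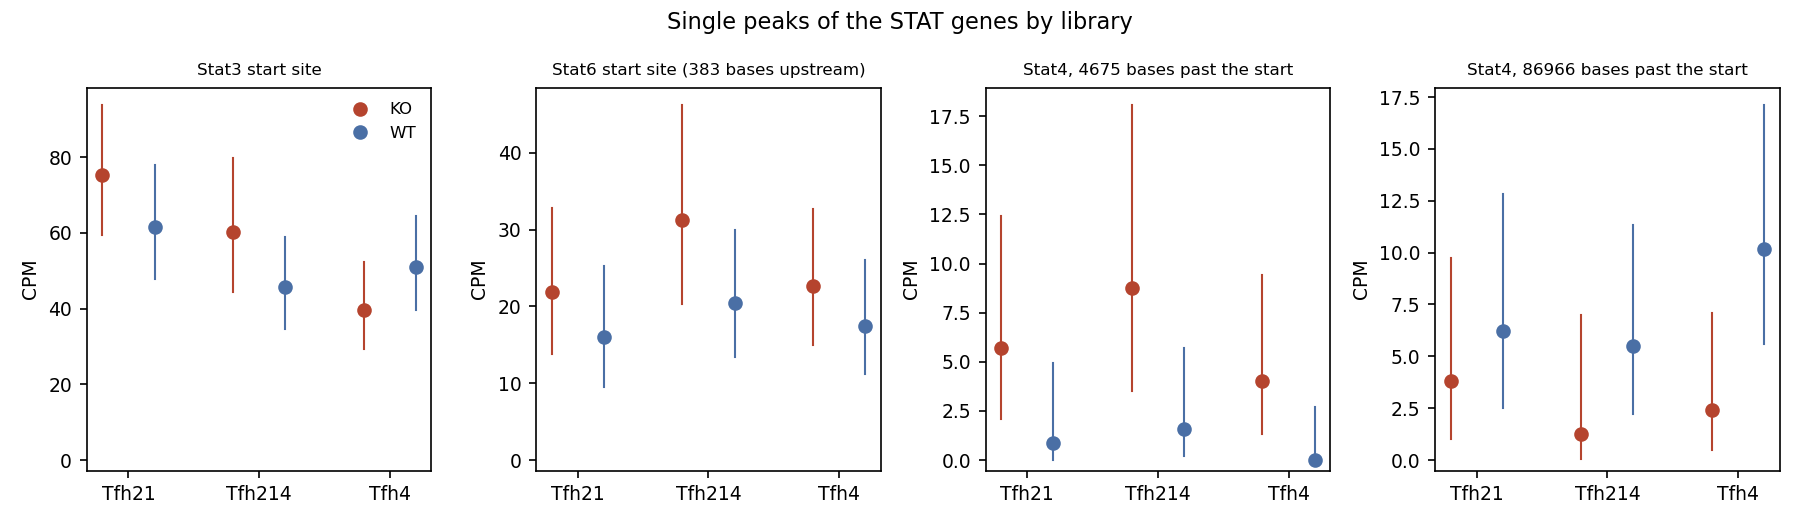
CPM of 4 single peaks in each library, KO left of WT in each population, with exact Poisson 95% intervals on the reads. The Stat4 peak 4675 bases past the start lies at 4.04 CPM or more in KO and 1.57 CPM or less in WT, and the Stat4 peak at 86966 bases lies at 3.81 CPM or less in KO and 5.50 CPM or more in WT.

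Only 4 STAT peaks reached the mean of 20 reads needed for the test over 8986 peaks, namely the strongest peaks of Stat2, Stat3, Stat5a and Stat6. The test called none of these 4 by genotype, against 77 peaks higher in KO (0.857%) and 0 lower (0.0%), with 1885 of the 8986 at an unadjusted p under 0.05. The count over all peaks was 2 without the Tfh21 libraries, 250 without Tfh214 and 49 without Tfh4, 1 by edgeR and 0 by DESeq2. The Stat6 peak upstream of the start had 21.9, 31.3 and 22.6 CPM in KO, against 16.0, 20.4 and 17.5 CPM in WT, with no overlap. Its effect was 0.46 ± 0.21 (limma, adjusted p = 0.208), where the median of all peaks tested was 0.19, and the pooled ratio was 1.36 (0.970 to 1.92). The Stat2 start-site peak had 33.3, 31.3 and 25.8 CPM in KO, against 26.7, 23.6 and 19.7 CPM in WT, higher in KO in each population, with an effect of 0.36 ± 0.19 (limma, adjusted p = 0.252). The start-site peaks of Stat3 and Stat5a had effects of 0.11 ± 0.13 (limma, adjusted p = 0.642) and 0.10 ± 0.17 (limma, adjusted p = 0.764). At 2-fold none of the 4 differed within a population, where 1.74% of peaks did in Tfh21, 1.18% in Tfh214 and 2.86% in Tfh4.

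Start sites and other peaks of a gene did not run alike in every gene. The 3 Stat6 start-site peaks gave a ratio of 1.31 (1.02 to 1.68) and its other 3 peaks 0.957 (0.616 to 1.48), and the Stat2 start-site peak gave 1.29 (0.952 to 1.75) against 0.784 (0.409 to 1.47) for its other 4. Start-site peaks of all genes gave 1.11 and their other peaks 0.960, so both genes lay on the same side as the whole. These ratios are on deposited CPM alone, and no share of all genes whose start-site interval excluded 1 is given beside them. Summed over all its peaks, Stat6 had a ratio of 1.06 (0.857 to 1.32) with median-of-ratios scaling. The ratio of start-site to other peaks was 1.36 (0.823 to 2.27) in Stat6 and 1.64 (0.810 to 3.39) in Stat2, against 1.16 over all genes. In Stat6 the start-site share was 75.4% to 79.4% in KO libraries and 68.1% to 74.5% in WT libraries, in Stat5b 18.3% to 23.0% in KO and 12.2% to 21.2% in WT. Stat3 and Stat5a gave 1.01 (0.748 to 1.37) and 0.838 (0.505 to 1.39), and Stat5b gave 1.12 (0.764 to 1.63).

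Across populations, with genotype as a term, the start-site peak of Stat3 (chr11:100800385-100801519) was lower in Tfh4 than in Tfh21. It had 39.6 CPM in KO Tfh4 and 75.2 CPM in KO Tfh21, and 51.0 CPM in WT Tfh4 and 61.5 CPM in WT Tfh21, with 60.1 CPM in KO Tfh214 and 45.6 CPM in WT Tfh214 beside them. The effect was -0.59 ± 0.16 (limma, adjusted p = 0.0451), 1.31% of peaks were called lower and 0.0% higher, and the median of all peaks was -0.27. With median-of-ratios scaling the effect was -0.31 with an adjusted p of 1.0. The call was also lost without the variance trend (adjusted p 0.221), with other minimums of reads (0.0577 and 0.339) and by edgeR (0.999) and DESeq2 (1.0). This was the 1 STAT peak past the threshold in a population contrast, out of 4 tested in 3 contrasts. Summed per gene, no STAT gene and 0 of 10825 genes (0.0%) passed in any population contrast by limma, with 552 genes at an unadjusted p under 0.05 for Tfh214 over Tfh21, 1377 for Tfh4 over Tfh21 and 1093 for Tfh4 over Tfh214. For Tfh4 over Tfh21 the 6 effects ran from -0.33 for Stat2 to -0.04 for Stat6, beside -0.11 for the median gene.

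Other genes of the JAK and STAT pathway, from lists chosen with results of these data known, gave no call either. Of 4 JAK kinases, none was called, with a median of 0.05, and the largest effects were those of Jak1, the kinase shared by most of these receptors, at 0.23 (limma, adjusted p = 0.381), and Jak3, the partner of the common gamma chain, at 0.09 (limma, adjusted p = 0.894). Of 17 receptor chains 13 had reads enough for the test and none was called, with a median of 0.06, and the interferon receptor chains Ifnar1 and Ifnar2 led with 0.26 and 0.19. Of 16 negative regulators 14 were tested and none was called, with a median of 0.17, the same as that of the STAT genes to 2 decimals. Socs5, a suppressor of cytokine signalling, had 0.34 (limma, adjusted p = 0.295), and Ptpn2, a phosphatase of JAKs and STATs, 0.34 (limma, adjusted p = 0.334). Irf9, the DNA-binding partner of Stat2, had 0.22. Of 10 target genes none was called, with a median of 0.15, led by Myc at 0.41 (limma, adjusted p = 0.464) and Pim1 at 0.23.

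Genes around the STAT loci gave no call either. Within 100 kb of the STAT peaks, 33 other genes had peaks, 19 of them could be tested and none was called, with a median effect of 0.15 and a highest effect of 0.48 (Nab2, next to Stat6). Nab2, a corepressor of early growth response factors, had a pooled ratio of 1.42 (1.13 to 1.80), an interval that excluded 1. The 7 peaks within 100 kb of Stat3 that carry no gene symbol, named here after their values were seen, held 49 KO and 89 WT reads, a ratio of 0.672 (0.464 to 0.962), an interval that excluded 1. Such peaks near Stat5a gave 0.813 (0.475 to 1.37), near Stat5b 0.836 (0.535 to 1.29) and near Stat4 0.903 (0.715 to 1.14). Those near Stat6 gave 1.05 (0.803 to 1.36) and near Stat2 1.08 (0.836 to 1.40), and all these intervals included 1. The starts of Stat3 and Stat5b lie 79.1 kb and 9.898 kb from that of Stat5a, so the same peak can count for more than 1 of these genes. Their ratios are therefore not separate results, and no ratio over all peaks without a symbol is given beside them.

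Over the 6 libraries Stat3, Stat4 and Stat5b went together. Pearson correlations of log2(CPM + 1), given as a description over libraries that share cells and depth, were 0.86 for Stat4 with Stat5b, 0.85 for Stat3 with Stat5b and 0.79 for Stat3 with Stat4, whereas Stat6 reached at most 0.25 with another STAT. The genes most like each STAT among 10825 had correlations of at least 0.98: Irf2bp2 and C330006A16Rik for Stat2, Plekhg2 and H2-D1 for Stat3, and Zswim1 and Zcchc8 for Stat4. For Stat5a they were Ino80 and Polr3c, for Stat5b Fam160b1 and Emc1, and for Stat6 Pole2 and Srprb.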

How the data were processed

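The authors deposited 1 list of peaks with a CPM value in each of 6 libraries, and each column has the same sum over the listed peaks. The submitters' processing notes name Bowtie 1.3.0, MACS2 2.0, HOMER and build mm9 but give no roles. How peaks were called, duplicates handled and cut sites shifted is not stated in them. Per the labels' protocols, tagmentation ran 30 min at 37 °C and 75 bp were read from both ends. The field headed Gene IDs holds the symbol that assigned peaks to genes. Stretches labelled as 5′ noncoding exons reach far beyond an exon and were read only as lying before the coding part.

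The lowest step in each column gave whole reads: at least 99.9989% of values lay within 0.02 of a whole number. CPM was summed per gene. limma 3.58.1 was fitted to log2(CPM + 1) with a variance trend, genotype and population as terms, over features with a mean of at least 20 reads, with Benjamini-Hochberg adjustment over all of them and a threshold of 0.05. The labels give 1 library a group and no separate cultures or animals, so p-values set an effect against the spread over populations, not over mice. limma drew the variance of each gene toward that of genes at a similar level, so this spread is not that of the gene alone. The genotype shares each contrast with its pool of mice. edgeR 4.0.16 and DESeq2 1.42.0 on recovered reads, median-of-ratios scaling, other pseudocounts (0.5 and 5) and minimums (10 and none), and leaving out a population were alternatives. Ratios carry exact binomial and exact conditional intervals, and shares Wilson intervals. Tested on simulated data, the limma fit recovered changed genes before use. Those reads had counting error alone and changes of 2-fold or 1.5-fold that were equal in every population. The simulation therefore does not measure power for the smaller pooled STAT ratios. R 4.3.3 and Python 3.11.15 were used.

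Members, gene lists and tests were chosen with earlier results of these data known. Named besides the members were the 2 genes of each pathway list with the largest absolute genotype effect, the genes within 100 kb with the extreme effects, and the 2 genes most like each member. Promoter sequences are from RefSeq (GRCm38.p6), and no coordinates were converted. Further items are not reported here.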

Additional observations from a re-analysis of the deposited data

Results flagged for a closer look

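The KO to WT ratio of 4 STAT genes was flagged between populations, in Tfh4 against the others, in 8 of the 18 comparisons made. For 5 of them the interval of the ratio of ratios excluded 1: Stat4 stood at 0.579 and Stat5a at 0.446 in Tfh4 over Tfh21, and Stat3 at 0.563, Stat4 at 0.601 and Stat5b at 0.672 in Tfh4 over Tfh214. The other 3 are listed only because KO was above WT in one population and below it in the other, with intervals that included 1, so that the difference was not shown: Stat3 at 0.749 and Stat5b at 0.734 in Tfh4 over Tfh21, and Stat5a at 0.649 in Tfh4 over Tfh214. Over all genes such an interval excluded 1 in 5.49% for Tfh4 over Tfh21 and 6.86% for Tfh4 over Tfh214. Each comparison rests on 4 single libraries, and intervals cover counting error only.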

How the results depend on the processing

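The genotype effect of the 6 STAT genes was recomputed in 81 combinations of gene and setting. Of these, 74 kept the direction, 7 turned it and 0 were called, with a lowest adjusted p of 0.134 by limma, edgeR or DESeq2. Settings that changed only the variance trend, the minimum of reads or the population term leave the effect itself unchanged. Their directions, among the 74, were therefore fixed in advance and show no robustness. The 7 were Stat3, Stat4 and Stat5a with median-of-ratios scaling (-0.052, -0.091 and -0.058), Stat3 (-0.069) and Stat4 (-0.015) without the Tfh214 libraries, and Stat4 (-0.043) and Stat5a (-0.15) without the Tfh21 libraries. Pooled KO to WT ratios of Stat3, Stat4 and Stat5a were below 1 with median-of-ratios scaling (0.955, 0.931 and 0.948), as were Stat3 (0.956) and Stat4 (0.979) without Tfh214 and Stat4 (0.937) and Stat5a (0.876) without Tfh21. Without Tfh4 these 3 excluded 1, at 1.27, 1.30 and 1.35. Stat5b no longer excluded 1 with median-of-ratios scaling (1.02), without Tfh21 (1.11) or without Tfh214 (1.08). Nor did Stat5b exclude 1 at start-site peaks only (1.27) or at its strongest peak (1.05). Stat6 excluded 1 at start-site peaks only (1.31), a setting computed on deposited CPM alone, where start-site peaks of all genes gave 1.11. Median-of-ratios scaling lowers every pooled ratio by the same factor, and it took the summed Stat6 ratio from 1.21 to 1.06.

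The 6 genes called by genotype became 255 with median-of-ratios scaling (3 higher and 252 lower in KO), 0 without the trend, 11 with no minimum of reads, 1 by DESeq2, and 2, 1 and 68 without Tfh21, Tfh214 and Tfh4. The 77 peaks became 2 with median-of-ratios scaling, 0 without the trend, 40 at a minimum of 10 reads, 17 with none, 1 by edgeR, 0 by DESeq2, 2, 250 and 49 without Tfh21, Tfh214 and Tfh4, and 2 with genotype as the sole term. No gene was called between populations by limma, but for Tfh4 over Tfh21 561 were with median-of-ratios scaling and 1 each at a pseudocount of 5, with no minimum and by edgeR, and for Tfh4 over Tfh214 183 with median-of-ratios scaling and 1 with no minimum. In 144 combinations of STAT gene, population contrast and setting, none was called (lowest adjusted p 0.21 by limma, edgeR or DESeq2). Median-of-ratios scaling turned Tfh4 over Tfh21 to 0.14 for Stat4, 0.12 for Stat5a, 0.18 for Stat5b and 0.23 for Stat6, and Tfh4 over Tfh214 to 0.13 for Stat3 and 0.019 for Stat5a. edgeR gave 0.012 for Stat5b and 0.070 for Stat6 in Tfh4 over Tfh21, and DESeq2 0.016 for Stat5b and 0.068 for Stat6. The cause of these shifts was not tested. Within 1 genotype a population contrast has no residual degrees of freedom, so it gave values and no test. The population term already sets KO against WT within each population, and with genotype as the sole term 7 genes and no STAT gene were called. The labels carry no replicate numbers to use as a further term.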
